A study of Homo sapiens with 6 samples.

Results

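Fibronectin, laminin-332 and the integrins that hold epithelial cells to them were followed here through 9 genes: FN1, LAMA3 and LAMB3 on the matrix side, the integrin alpha subunit genes ITGA2, ITGA3 and ITGA6, and the integrin beta subunit genes ITGB1, ITGB4 and ITGB6. They were taken by symbol from the gene names of the count tables, and each symbol matched 1 row in each table, so the 9 genes stand among 37493 distinct gene identifiers. The study measured expression by RNA sequencing in OE33 and Eso26, both established lines of human esophageal adenocarcinoma, the glandular cancer of the esophagus. The groups were OE33 with an siRNA against PPARG (siPPARG), OE33 with a non-silencing siRNA (control), Eso26 with siPPARG and Eso26 with the non-silencing siRNA, all delivered with Lipofectamine RNAiMAX. OE33 was kept in DMEM and Eso26 in RPMI-1640 per the labels, so line and medium cannot be told apart. Each group had 1 column of counts. The series' design speaks of triplicates, and the sources used here do not say if a column sums several cultures, so each was treated as 1 library and no value within a line has a replicate check. PPARG binding was also mapped in both lines, and those peaks were not used here.

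Laminin-332 is a heterotrimer whose alpha and beta chains are encoded by LAMA3 and LAMB3, and it is the main laminin under epithelial cells, which anchor to it through integrins α6β4 and α3β1. Integrins work as pairs of an alpha and a beta subunit, so that a cell's choice of subunits sets which matrix it can grip: α6β4 nucleates hemidesmosomes, α2β1 binds collagen, and αvβ6 binds fibronectin and releases active TGF-β from its latent complex. Fibronectin is a soluble protein that cells assemble into fibrils, and many carcinomas carry more of it than the normal epithelium does.

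Library totals ran from 16866996 to 23019840 counts, and 3 counts, the level that a count of 0 allows, correspond to a scaled CPM between 0.131 and 0.179. CPM is the share of a library's reads that fall on a gene, put on one scale for all libraries with trimmed-mean (TMM) factors, and every interval below is a 95% counting interval that leaves out the spread between cultures. PPARG, the target of the siRNA, had 313 counts in OE33 siPPARG and 2156 in the OE33 control, a ratio of 0.136 (interval 0.121 to 0.154). In Eso26 it had 201 counts in the library labelled siPPARG and 259 in the control, a ratio of 0.846 whose interval of 0.700 to 1.02 takes in no change. Effects of losing PPARG and other effects of this siRNA cannot be told apart. Epithelial markers were abundant as a list, with EPCAM between 8787 and 48813 counts. Some of them were low in a single line, KRT7 in Eso26 and VIL1, KRT20 and CDX1 in OE33. The mesenchymal list of 20 genes, in contrast, summed to 16.2, 15.7, 13.7 and 11.03 CPM in OE33 siPPARG, OE33 control, Eso26 siPPARG and Eso26 control. In each library 9 to 12 of its genes were at 0, with CDH2 at 0 in all libraries and VIM at no more than 10 counts.

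The matrix and integrin genes were mostly higher in OE33 than in Eso26, and by very unequal amounts, from a ratio of 0.933 for ITGB4 and 1.005 for LAMB3 to 2650-fold for FN1 between the controls. Between the control libraries, 6 of the 9 genes were past 2-fold higher in OE33, namely FN1, LAMA3, ITGA2, ITGA3, ITGB1 and ITGB6, and 0 of 9 were past 2-fold lower. Among the 11200 genes that reached 5 CPM in the OE33 control or the Eso26 control, 20.8% were past 2-fold higher in OE33 and 16.9% past 2-fold lower. The median log2 fold of OE33 over Eso26 was 1.45 over the 9 genes and -0.01 over all genes kept. FN1 passed that expression level through OE33 alone and so could only differ in this direction. The 9 genes were chosen with earlier results of these data known, so their shares and median are a description and not an independent comparison. A fit of all 4 libraries had a term for the line and a term for the siRNA (edgeR's quasi-likelihood test, Benjamini-Hochberg adjustment over 11387 genes, 2 libraries per line and 1 residual degree of freedom). In it, 7 of the 9 genes were called, all higher in OE33. That fit called 72.2% of all genes, 36.3% higher and 35.9% lower in OE33, so a call by itself says little about these genes and their sizes are given below.

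**Figure D1:**
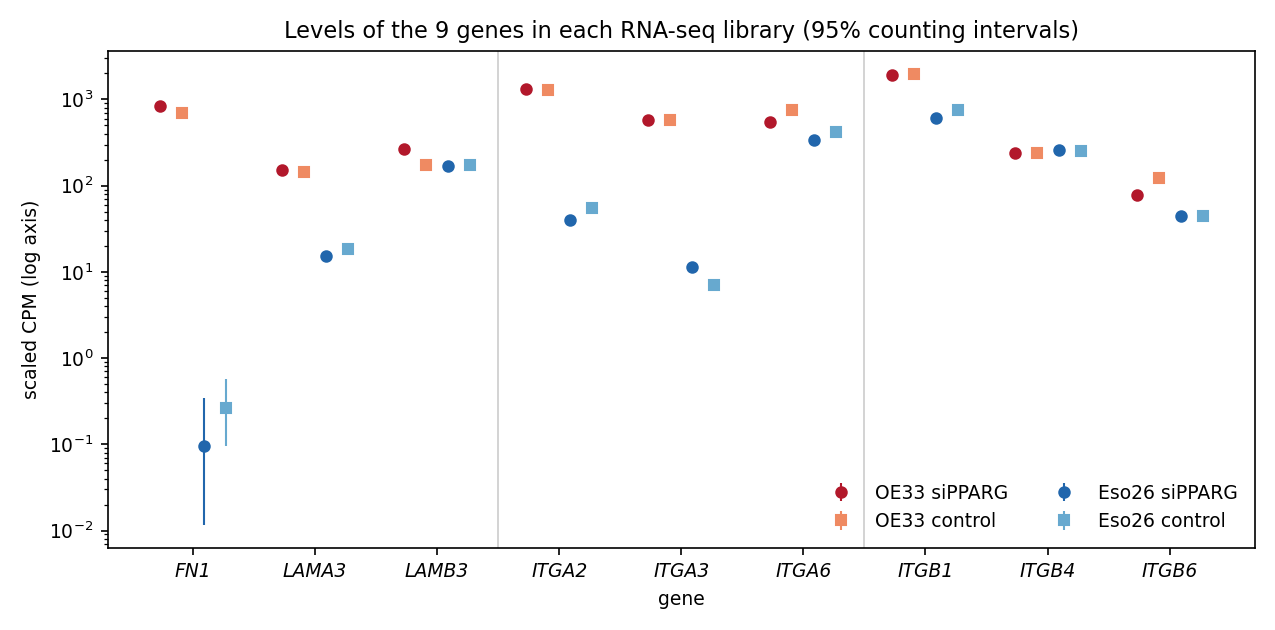
Scaled CPM (log axis) of the 9 genes in each of the 4 libraries, with siPPARG libraries as circles, controls as squares, OE33 in red and orange, Eso26 in blue, and bars for the 95% counting intervals, most of them smaller than the symbols. FN1, ITGA2 and ITGA3 stand far apart between the lines, while the 4 values of ITGB4 lie between 236 and 259.6 CPM.

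FN1 (ENSG00000115414), the fibronectin gene, lies on chromosome 2. It had 840 CPM (15010 counts) in OE33 siPPARG, 693 CPM (11633 counts) in the OE33 control, 0.0950 CPM (2 counts) in Eso26 siPPARG and 0.262 CPM (6 counts) in the Eso26 control. Both OE33 libraries were thus high and both Eso26 libraries near the level of single reads. Between the controls FN1 was 2650-fold higher in OE33 (interval 1217 to 7222), and between the siPPARG libraries 8842-fold (interval 2447 to 73020), wide bounds that come from the few Eso26 reads. In these bulk libraries, fewer cells with a transcript and less transcript per cell cannot be told apart. The fitted log2 fold of the line was 11.98 (edgeR adjusted p = 1.88e-06), a size that rests on the few Eso26 reads. The log2 fold between the controls depended on the prior count, at 10.90 with 2 and 11.24 with 0.5.

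The FN1 promoter is shown because its gene differed most between the lines. These are the 250 bases before the gene's start at chr2:215436069-215436318, minus strand, from RefSeq on GRCh38.p14, printed 5′ to 3′ with motif matches in capitals.
FN1: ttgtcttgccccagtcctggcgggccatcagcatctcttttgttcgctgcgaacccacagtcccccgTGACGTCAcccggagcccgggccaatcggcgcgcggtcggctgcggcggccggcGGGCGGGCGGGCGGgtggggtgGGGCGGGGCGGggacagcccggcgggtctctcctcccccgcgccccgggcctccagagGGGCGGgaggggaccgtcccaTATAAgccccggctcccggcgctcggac
Capitals mark 1 CRE (TGACGTCA, the site of the CREB and ATF factors), 6 GC boxes (GGGCGG, recognised by Sp factors) and 1 TATAA box, read on both strands, with neighbouring GC boxes overlapping. Of 35116 such windows over all genes in the table, 1.65% held the CRE, 42.6% a GC box and 18.9% a TATAA. The window is 76.4% G and C, against a median of 58.0% over all windows.

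LAMA3 and LAMB3 encode the alpha and beta chains of laminin-332, and their gaps between the lines were of very different size. LAMA3 (ENSG00000053747, chromosome 18) had 149.9 CPM in OE33 siPPARG, 145 CPM in the OE33 control, 15.3 CPM in Eso26 siPPARG and 18.2 CPM in the Eso26 control. The OE33 values lay close together and well above both Eso26 values, by 8.0-fold between the controls (interval 7.21 to 8.90) and with a fitted log2 fold of 3.14 (edgeR adjusted p = 8.51e-06). LAMB3 (ENSG00000196878, chromosome 1) had 265 CPM in OE33 siPPARG, 173 CPM in the OE33 control, 167.5 CPM in Eso26 siPPARG and 172 CPM in the Eso26 control. Of these only OE33 siPPARG stood apart. The controls had a LAMB3 ratio of 1.005 (interval 0.957 to 1.05), the siPPARG libraries 1.58 (interval 1.51 to 1.65), and the line term did not pass (log2 fold 0.33, edgeR adjusted p = 0.130).

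The ratio of LAMB3 to LAMA3 counts within a library, which needs no scaling, was 1.77 in OE33 siPPARG, 1.19 in the OE33 control, 10.95 in Eso26 siPPARG and 9.45 in the Eso26 control. It was thus higher in both Eso26 libraries, and in OE33 higher in siPPARG than in the control, whereas the Eso26 intervals of 9.76 to 12.3 in siPPARG and 8.54 to 10.5 in the control overlapped. Counts depend on transcript length, so this ratio is read between libraries and not as an amount of one chain against another.

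The promoters of these chains are set side by side because LAMA3 differed between the control libraries and LAMB3 hardly did. LAMB3 has 3 starts in the RefSeq table, and the first is printed. LAMA3 is at chr18:23872770-23873019 on the plus strand and LAMB3 at chr1:209652426-209652675 on the minus strand, both as 250 bases before the start on GRCh38.p14.
LAMA3: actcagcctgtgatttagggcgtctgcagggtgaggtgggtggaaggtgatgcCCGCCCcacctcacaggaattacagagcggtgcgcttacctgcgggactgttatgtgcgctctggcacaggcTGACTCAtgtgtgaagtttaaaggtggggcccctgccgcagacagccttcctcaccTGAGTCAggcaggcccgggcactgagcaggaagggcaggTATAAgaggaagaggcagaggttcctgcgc
LAMB3: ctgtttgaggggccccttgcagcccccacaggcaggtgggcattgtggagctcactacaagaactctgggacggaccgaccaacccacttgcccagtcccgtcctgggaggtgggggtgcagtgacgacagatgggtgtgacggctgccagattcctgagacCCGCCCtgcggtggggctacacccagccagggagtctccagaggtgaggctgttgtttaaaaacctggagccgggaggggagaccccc
Capitals in LAMA3 mark 2 AP-1 sites (TGANTCA, bound by Fos and Jun factors), 1 GC box and 1 TATAA. In LAMB3 they mark 1 GC box. An AP-1 site was found in 6.57% of all windows. The window of the third LAMB3 start held 1 AP-1 site and the first and second held 0. The letters AGGTCA, the core that nuclear receptors such as PPARG recognise, were in 12.1% of all windows, a pair of such cores 1 base apart in 0.0171%, and neither was in any of the 11 windows listed for 7 of the 9 genes. A match is a description of these letters and says nothing of binding. ITGA3 and ITGB4 had no entry.

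The integrin alpha subunits ITGA2 and ITGA3 had the next widest gaps between the lines after FN1. ITGA2 (ENSG00000164171, chromosome 5), the collagen-binding partner of ITGB1, had 1309 CPM in OE33 siPPARG, 1296 CPM in the OE33 control, 39.7 CPM in Eso26 siPPARG and 54.7 CPM in the Eso26 control. It was 23.7-fold higher in the OE33 control than in the Eso26 control (interval 22.4 to 25.1), with a fitted log2 fold of 4.80 (edgeR adjusted p = 3.89e-06). ITGA3 (ENSG00000005884, chromosome 17), whose product pairs with ITGB1 to bind laminin-332, had 573 CPM in OE33 siPPARG, 570.4 CPM in the OE33 control, 11.4 CPM in Eso26 siPPARG and 7.02 CPM in the Eso26 control. Its ratio between the controls was 81.3 (interval 69.6 to 95.6) and between the siPPARG libraries 50.3 (interval 44.2 to 57.4), with a fitted log2 fold of 5.99 (edgeR adjusted p = 4.19e-06). The OE33 and Eso26 values of both genes were far apart in every library.

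ITGA6 (ENSG00000091409, chromosome 2), the other laminin-binding alpha subunit, which pairs with ITGB4 or ITGB1, was high in both lines. It had 543 CPM in OE33 siPPARG, 749 CPM in the OE33 control, 338 CPM in Eso26 siPPARG and 423 CPM in the Eso26 control. Both OE33 values lay above both Eso26 values, by 1.77-fold between the controls (interval 1.72 to 1.82, line term log2 0.75, edgeR adjusted p = 0.00130). Its antisense gene ITGA6-AS1 had 2 to 7 counts per library; whether reads were counted by strand was not given, so its reads and those of ITGA6 may not have been separated.

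ITGB1 and ITGB4, the beta subunits of the laminin receptors, behaved unlike each other: ITGB1 differed between the lines and ITGB4 hardly did. ITGB1 (ENSG00000150093, chromosome 10), the common partner of many alpha subunits, had 1924 CPM in OE33 siPPARG, 1986 CPM in the OE33 control, 604 CPM in Eso26 siPPARG and 762 CPM in the Eso26 control. The controls differed by 2.605-fold (interval 2.56 to 2.65, line term log2 1.53, edgeR adjusted p = 8.23e-05), with both OE33 values above both Eso26 values. ITGB4 (ENSG00000132470, chromosome 17), the hemidesmosome subunit, had 242 CPM in OE33 siPPARG, 236 CPM in the OE33 control, 259.6 CPM in Eso26 siPPARG and 253 CPM in the Eso26 control. All ITGB4 values were within a narrow band, the ratio of the controls was 0.933 (interval 0.896 to 0.972), and the line term did not pass (log2 fold -0.10, edgeR adjusted p = 0.458). A p that misses the threshold does not show that the lines were equal.

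ITGB6 (ENSG00000115221, chromosome 2), which encodes the epithelial partner of integrin αv, had 78.9 CPM in OE33 siPPARG, 123 CPM in the OE33 control, 44.8 CPM in Eso26 siPPARG and 44.9 CPM in the Eso26 control. Every OE33 value was above every Eso26 value, by 2.74-fold between the controls (interval 2.54 to 2.96) and by 1.76-fold between the siPPARG libraries (interval 1.62 to 1.92). The line term passed with a log2 fold of 1.14 (edgeR adjusted p = 0.00136). Its promoter window is shown because ITGB6 was also the gene with the lowest siPPARG ratio in OE33. It lies at chr2:160200273-160200522, minus strand, GRCh38.p14, with 30.0% G and C.
ITGB6: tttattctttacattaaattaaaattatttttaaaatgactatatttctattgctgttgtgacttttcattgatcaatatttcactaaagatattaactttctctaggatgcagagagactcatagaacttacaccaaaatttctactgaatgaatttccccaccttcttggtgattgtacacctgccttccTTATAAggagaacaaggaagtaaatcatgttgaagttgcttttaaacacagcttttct
Capitals mark a TATAA on either strand in 2 overlapping matches, and no GC box, CRE or AP-1 site was found in this window.

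**Figure D2:**
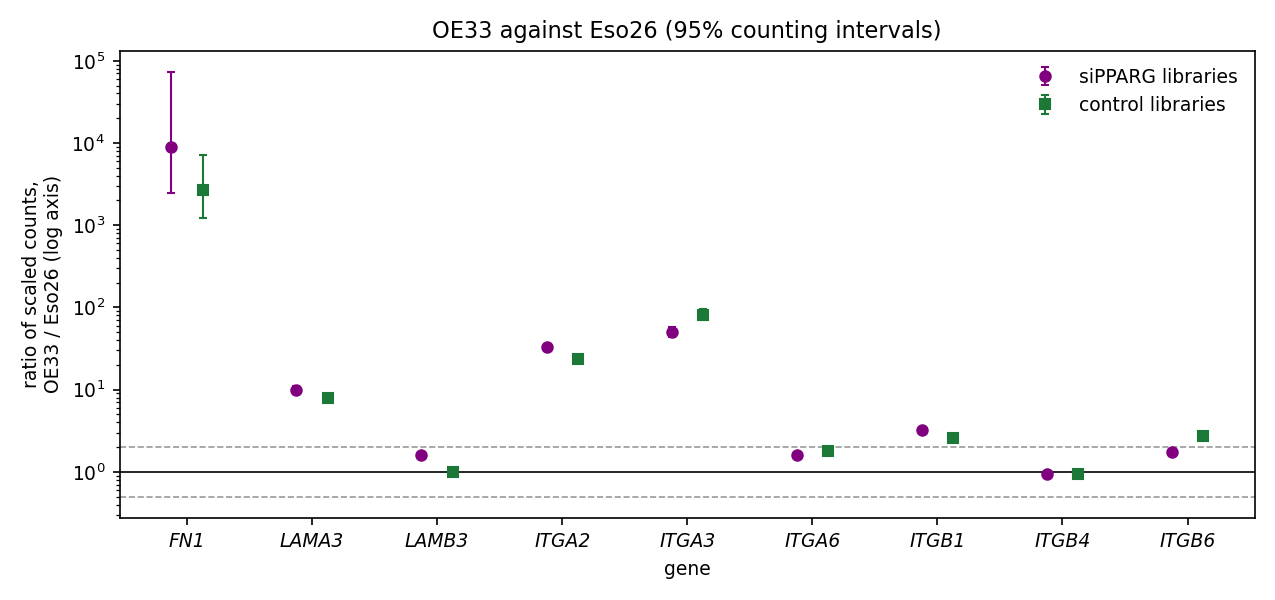
Ratio of scaled counts in OE33 to Eso26 (log axis) for each gene, in the siPPARG libraries (purple circles) and the control libraries (green squares), with 95% counting intervals; the solid line is at 1 and the dashed lines at 2-fold. FN1, ITGA3, ITGA2 and LAMA3 lie well above 2-fold in both pairs of libraries, and ITGB4 lies just below 1 in both.

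Because integrins act as pairs, subunit counts were also set against their partner within each library. ITGA2 to ITGB1 counts stood at 0.680 in OE33 siPPARG, 0.653 in the OE33 control, 0.0657 in Eso26 siPPARG and 0.0717 in the Eso26 control. ITGA3 to ITGB1 counts stood at 0.298, 0.287, 0.0189 and 0.00921 in the same order. Both ratios were higher in OE33, so these alpha subunits differed between the lines by more than their beta partner did. ITGA6 to ITGB1 counts went the other way, at 0.282, 0.377, 0.560 and 0.555, as did ITGB4 to ITGB1 counts, at 0.126, 0.119, 0.430 and 0.332. ITGA6 to ITGB4 counts were 2.25, 3.17, 1.30 and 1.67. In Eso26, then, the counts of ITGA6 and ITGB4 were larger relative to ITGB1, and those of ITGA2 and ITGA3 smaller, than in OE33.

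**Figure D3:**
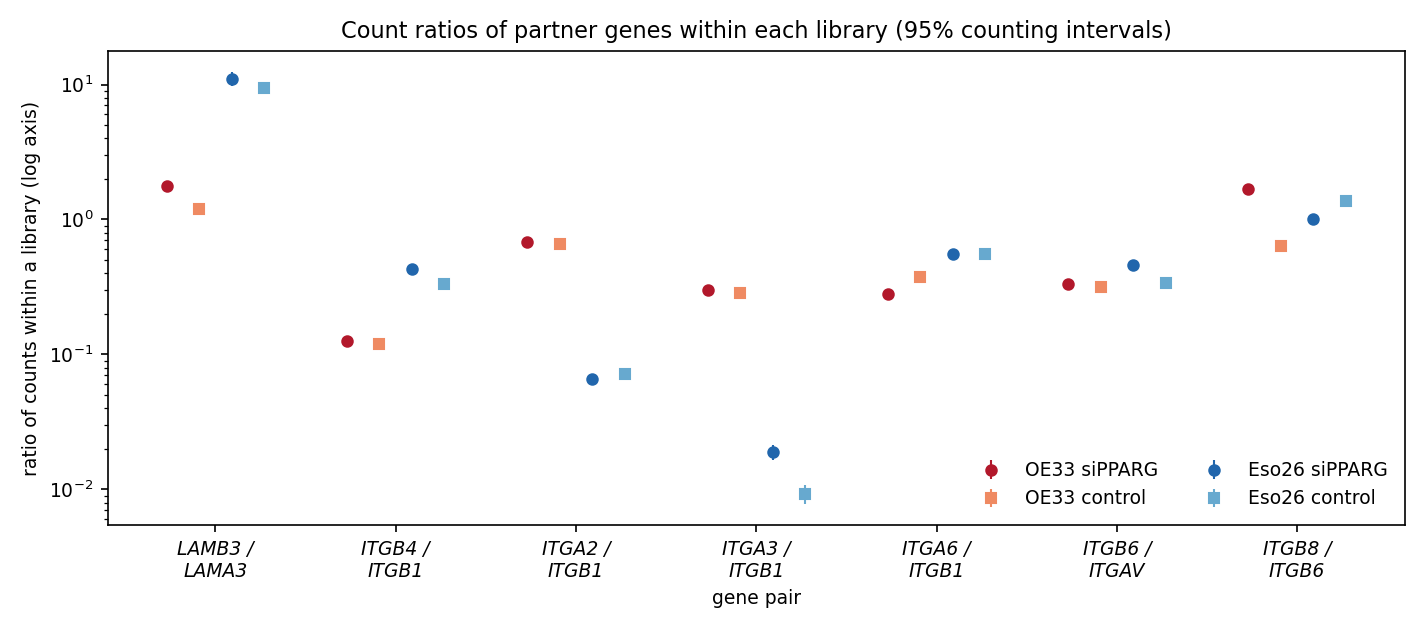
Ratio of counts of partner genes within each library (log axis), coloured by library as in the plot of levels, with 95% counting intervals. LAMB3 to LAMA3, ITGA2 to ITGB1 and ITGA3 to ITGB1 separate the lines, and ITGB8 to ITGB6 separates the OE33 libraries.

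After siPPARG, none of the 9 genes kept in OE33 and none of the 8 kept in Eso26 moved past 2-fold. In OE33, 0 of 9 were past 2-fold, where 1.48% of 10527 genes kept were, and 2 of 9 were past 1.5-fold, where 5.67% of all genes were: LAMB3 was higher and ITGB6 lower. The median log2 fold over the 9 genes was 0.01 in OE33, with 6 above 0 and 3 below (4 above and 5 below without a scaling factor), against a median of -0.00 over all genes. In Eso26, 0 of the 8 genes kept were past 2-fold, where 0.191% of 10449 genes were, and 1 of 8 was past 1.5-fold, where 2.42% of all genes were: ITGA3 was higher. The median there was -0.14, with 2 above 0 and 6 below (4 above and 4 below without a scaling factor), against -0.00 over all genes. FN1 fell under the 5 CPM level in Eso26 and is not among the 8. The 5th to 95th percentiles of the log2 fold over all genes kept were -0.44 to 0.49 in OE33. In Eso26 they were -0.39 to 0.39. Outside these ranges lay LAMB3, ITGB6 and ITGA6 in OE33 and ITGA2 and ITGA3 in Eso26. The other kept values of these genes lay inside, among them FN1 in OE33 and ITGA6 and ITGB1 in Eso26. Over all genes, 112 were past 2-fold higher and 44 lower in OE33 siPPARG, and 6 higher and 14 lower in Eso26 siPPARG, or 8 higher and 10 lower without a scaling factor.

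On the matrix side, the OE33 siPPARG library had more FN1 and LAMB3 than its control. FN1 stood at 1.21 times the control (interval 1.18 to 1.24), LAMB3 at 1.53 times (interval 1.47 to 1.61) and LAMA3 at 1.03 times, with an interval of 0.976 to 1.09 that takes in 1. The beta chain gene of laminin-332 thus stood apart from the alpha chain gene in this line. In Eso26, LAMB3 stood at 0.975 (interval 0.931 to 1.02) and LAMA3 at 0.842 (interval 0.726 to 0.976). FN1, with 2 reads in Eso26 siPPARG and 6 in its control, had a ratio of 0.363 and an interval of 0.0359 to 2.03, so no difference was detectable at that depth.

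Among the alpha subunits, ITGA6 was lower in the siPPARG library of both lines, at 0.726 times the control in OE33 (interval 0.707 to 0.745) and 0.799 times in Eso26 (interval 0.775 to 0.824). ITGA2 was level in OE33, at 1.01 (interval 0.992 to 1.03), and at 0.726 in Eso26 (interval 0.664 to 0.793). ITGA3 was level in OE33, at 1.005 (interval 0.977 to 1.03), and at 1.625 in Eso26 (interval 1.33 to 1.996), where it rested on 240 counts in siPPARG and 161 in the control. The 2 OE33 ratios that sit at 1, those of ITGA2 and ITGA3, changed sign with the scaling, as did those of LAMB3 and ITGB6 in Eso26, and none of these 4 has a direction.

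Among the beta subunits, ITGB6 was the lowest in OE33, with 1410 counts in siPPARG and 2066 in the control, a ratio of 0.641 (interval 0.599 to 0.687). In Eso26 it had 943 counts in siPPARG and 1030 in the control, a ratio of 0.998 (interval 0.913 to 1.09). ITGB1 stood at 0.969 in OE33 (interval 0.954 to 0.984) and at 0.792 in Eso26 (interval 0.774 to 0.811). ITGB4 hardly differed, at 1.03 in OE33 (interval 0.982 to 1.07) and 1.03 in Eso26 (interval 0.989 to 1.07). The partner of ITGB6, ITGAV, was lower in both lines, with 4207 counts in OE33 siPPARG and 6512 in its control (ratio 0.607, interval 0.584 to 0.631), and 2059 in Eso26 siPPARG and 3053 in its control (ratio 0.735, interval 0.695 to 0.778). ITGB8, whose product also pairs with αv and binds latent TGF-β, was higher in OE33 siPPARG, at 1.69 times the control (interval 1.58 to 1.81), and lower in Eso26 siPPARG, at 0.740 (interval 0.681 to 0.804). Counts of ITGB8 to ITGB6 were 1.68 in OE33 siPPARG and 0.636 in its control, and 1.01 in Eso26 siPPARG and 1.36 in its control, so the balance of these αv partners went in opposite directions in the lines. A difference of the siPPARG effect between the lines could not be tested with 1 library per condition.

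**Figure D4:**
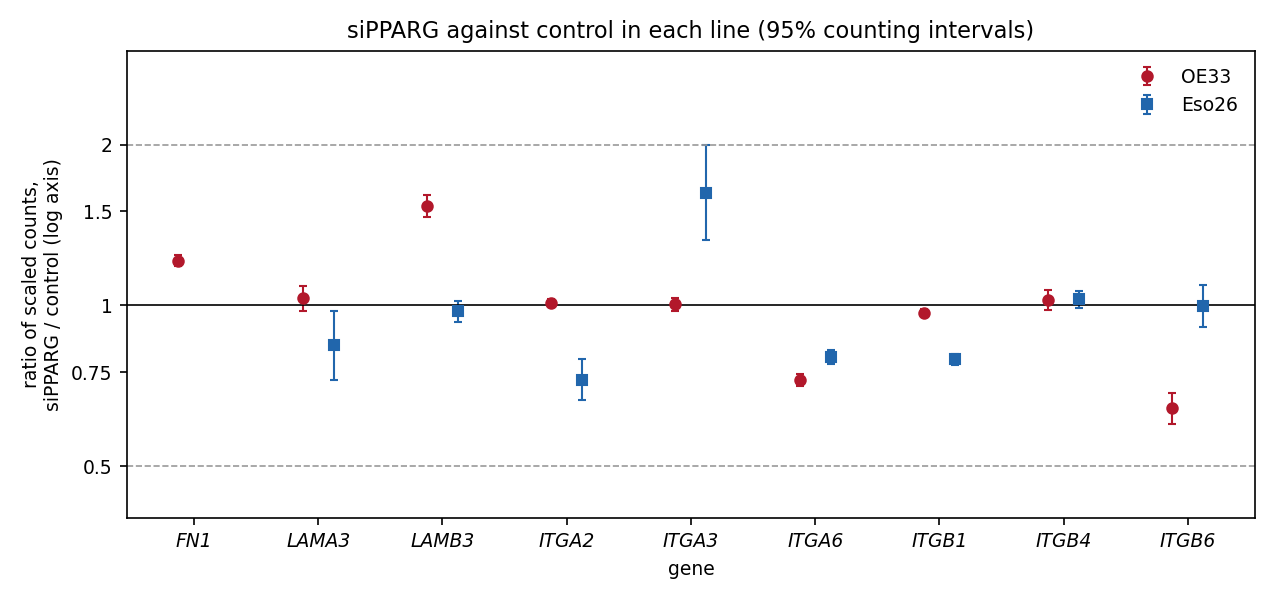
Ratio of scaled counts in siPPARG to control (log axis) for each gene in OE33 (red circles) and Eso26 (blue squares), with 95% counting intervals, a solid line at 1 and dashed lines at 2-fold. LAMB3 and ITGB6 in OE33 and ITGA3 in Eso26 lie farthest from 1, and all ratios are inside the dashed lines; FN1 in Eso26, with 2 and 6 counts, is not drawn.

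An effect of siPPARG common to both lines was tested with the treatment term of the same fit. Of 11387 genes, 0 were called (0.0%) by edgeR's quasi-likelihood test, with 561 at an unadjusted p under 0.05 and a smallest adjusted p of 0.508. DESeq2 called 13 genes and limma-voom 0. None of the 9 genes was called by any of the 3 tools. PPARG, the target of the siRNA, was not called by them either, with a fitted log2 fold of -1.67 (edgeR adjusted p = 0.945). Only the edgeR fit with no expression filter called PPARG (adjusted p = 4.04e-06). A gene that was not called is therefore not shown to be unchanged. ITGA6 had a fitted log2 fold of -0.39 (unadjusted p = 0.0132, edgeR adjusted p = 0.945) and was lower in both lines. LAMB3 (0.29) and ITGB6 (-0.33) had edgeR adjusted p of 0.947 and 0.945. The fit takes its error from how far the lines differ in their response, so a change in 1 line alone adds to its error.

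Of the other integrin subunits, those that reached the expression level were also mostly higher in OE33. By the line term, 3 of 4 alpha subunits and 3 of 3 beta subunits tested were higher and 0 lower, of 15 and 5 listed, where 36.3% of all genes were called higher and 35.9% lower, so that shares of called genes near 72.2% are those of the background here and in the lists that follow. ITGA5, the alpha subunit of the classical fibronectin receptor, was 5.02-fold higher in the OE33 control than in the Eso26 control (interval 4.41 to 5.73), ITGAV 2.915-fold (interval 2.79 to 3.04) and the αv partner ITGB5 3.83-fold (interval 3.57 to 4.11). ITGB2, the leukocyte beta subunit, had 199 counts in OE33 siPPARG, 275 in the OE33 control, 0 in Eso26 siPPARG and 2 in the Eso26 control. It passed the expression level through OE33 alone and so could only differ in this direction. ITGA1 was 1.57-fold higher, ITGB8 1.28-fold higher and ITGAE stood at 0.914 (interval 0.725 to 1.15). After siPPARG no kept gene of these lists was past 2-fold in either line, and ITGA5 stood at 1.201 in OE33 (interval 1.11 to 1.30) and 0.823 in Eso26 (interval 0.689 to 0.982).

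Other basement membrane genes went both ways between the lines. Of the other laminins, 4 of 6 tested were higher and 1 lower in OE33 by the line term, LAMB1 being 5.19-fold and LAMA5 3.64-fold higher between the controls and LAMA2 at 0.272 (interval 0.193 to 0.376). Of the remaining basement membrane genes, 7 of 9 tested were higher and 2 lower. The lower ones were COL4A1 and COL4A2, which encode the ubiquitous chains of collagen IV. COL4A1 had 0 counts in both OE33 libraries, 566 in Eso26 siPPARG and 743 in the Eso26 control, at least 181-fold lower in the OE33 control with the floor of 3 counts per library. COL4A2 had 3 counts in each OE33 library, 473 in Eso26 siPPARG and 559 in the Eso26 control. In contrast, COL18A1 was 17.9-fold and COL4A5 15.2-fold higher in the OE33 control. LAMA2, COL4A1 and COL4A2 passed the expression level through Eso26 alone, and COL18A1 and COL4A5 through OE33 alone. The directions of these genes were thus set by that level. No kept gene of these lists was past 2-fold after siPPARG.

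Genes that link the laminin receptors to the cell interior also differed between the lines, in both directions. Among hemidesmosome genes, 3 of 4 tested were higher in OE33 by the line term and 0 lower. COL17A1, the transmembrane collagen of hemidesmosomes, had 3291 counts in OE33 siPPARG, 3324 in the OE33 control, 52 in Eso26 siPPARG and 83 in the Eso26 control, 54.7-fold higher in the OE33 control (interval 44.0 to 68.9). It passed the expression level through OE33 alone and so could only differ in this direction. The tetraspanin gene CD151 was 2.81-fold and the plectin gene PLEC 2.765-fold higher, while DST stood at 1.04 (interval 1.002 to 1.08). ITGB4, the integrin of that structure, thus did not differ as COL17A1 did. Of the adhesion complex genes that join beta subunits to actin, 15 of 21 tested were higher and 4 lower in OE33, where 36.3% of all genes were higher and 35.9% lower. The kindlin gene FERMT2 had 340 counts in OE33 siPPARG, 331 in the OE33 control, 3 in Eso26 siPPARG and 1 in the Eso26 control, and the talin gene TLN2 had 12, 27, 323 and 297 counts in the same order. FERMT2 passed the expression level through OE33 alone and TLN2 through Eso26 alone, so their directions were set by it. VASP was 2.53-fold higher in the OE33 control than in the Eso26 control.

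In the list of fibronectin assembly and integrin-activated TGF-β genes, 8 of 13 tested were higher and 2 lower in OE33, where 72.2% of all genes were called in either direction. TGM2, a transglutaminase that crosslinks fibronectin and binds integrins, had 3799 counts in OE33 siPPARG, 1472 in the OE33 control, 12 in Eso26 siPPARG and 5 in the Eso26 control. Its ratio of siPPARG to control in OE33 was 2.425 (interval 2.28 to 2.58), and it was the only gene past 2-fold higher of the 12 of this list kept there. Over all genes kept in OE33, 1.06% were past 2-fold higher. PLAU, the urokinase gene, was 28.4-fold higher in the OE33 control than in the Eso26 control (interval 26.6 to 30.4), and LTBP2, a latent TGF-β binding protein gene, at least 64.7-fold higher with 0 counts in both Eso26 libraries. TNC, which encodes the matrix protein tenascin-C, went against FN1: it had 38 counts in OE33 siPPARG, 21 in the OE33 control, 3289 in Eso26 siPPARG and 5053 in the Eso26 control. TGM2 and LTBP2, among others of this list, passed the expression level through OE33 alone, and TNC through Eso26 alone. Their directions between the lines were thus set by that level. TGFB2 was the only one of 9 kept genes past 2-fold lower in Eso26, with 90 counts in siPPARG and 202 in the control (ratio 0.486, interval 0.375 to 0.626), and stood at 1.09 in OE33 (interval 0.819 to 1.45). Over all genes kept in Eso26, 0.134% were past 2-fold lower.

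**Figure D5:**
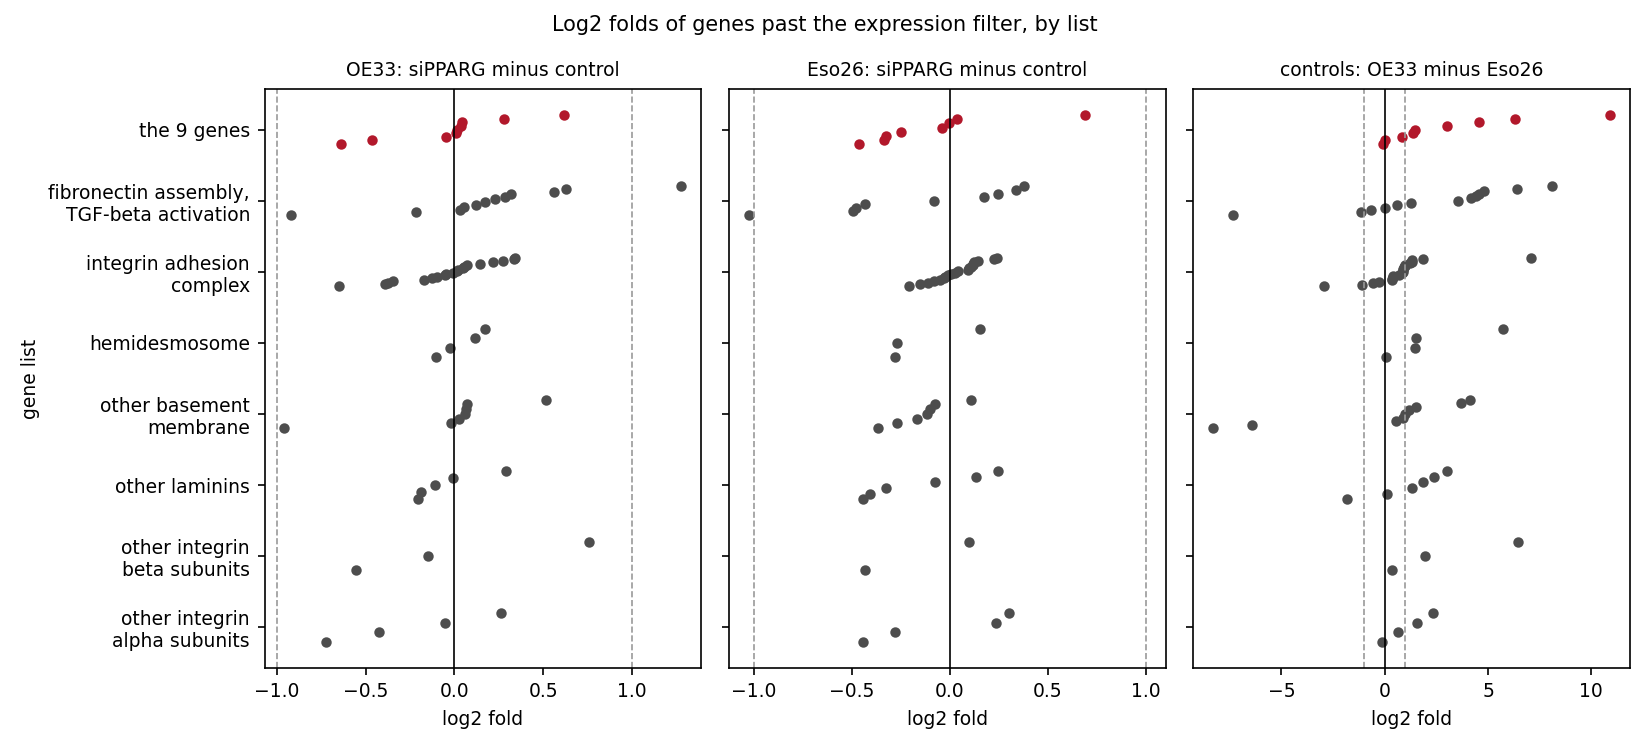
Log2 folds of the genes that reached 5 CPM in a compared library, for the 9 genes (red, top) and the related lists (gray), in OE33 siPPARG minus control, Eso26 siPPARG minus control, and OE33 control minus Eso26 control; dashed lines mark 2-fold. After siPPARG nearly all points lie inside the dashed lines, with TGM2 in OE33 and TGFB2 in Eso26 outside, while many points lie beyond them in the comparison of the lines; the panels differ in scale.

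Other markers also separated the lines. Epithelial markers summed to 10890, 11280, 7024 and 7110 CPM and squamous markers to 38.1, 31.45, 10.1 and 11.3 CPM in OE33 siPPARG, OE33 control, Eso26 siPPARG and Eso26 control. The epithelial sum turned on the keratin gene KRT19, singled out after its values were seen, and without it was 5893, 5983, 6042 and 6298 CPM in the same order. By the line term 6 of 15 epithelial markers were higher and 9 lower in OE33. The keratin gene KRT7 was 1108-fold higher in the OE33 control than in the Eso26 control (interval 776 to 1642), while the intestinal genes VIL1, CDX1 and KRT20 stood at 0.00121, 0.00150 and 0.00297 times the Eso26 control. CDX1 rested on 3 counts in the OE33 control, with an interval of 0.000310 to 0.00440. The squamous genes SPRR1B, KRT13 and IVL had 206, 165 and 103 counts in the OE33 control and 0 in the Eso26 control, and SOX2 went the other way, with 2 counts in the OE33 control and 198 in the Eso26 control. KRT7, VIL1, CDX1, KRT20 and these squamous genes each passed the expression level in only 1 of the controls. Their directions were thus set by that level. Of 3 squamous genes kept in OE33, 1 was past 2-fold lower in siPPARG than in the control, KRT13, and 0 were past 2-fold higher. Over all genes kept in OE33, 0.418% were past 2-fold lower and 1.06% past 2-fold higher. SNAI2, a transcription factor gene of the mesenchymal list, had 90 counts in OE33 siPPARG, 112 in the OE33 control and 0 in both Eso26 libraries. COL1A1 stood at 0.636 between the controls. Immune markers summed to 5.93, 5.72, 25.7 and 25.6 CPM, mostly LYZ in Eso26, and endothelial markers to 0.168, 0.417, 3.94 and 2.75 CPM. The part of these differences in the matrix and integrin values was not tested.

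Genes with the most similar profile over the 4 libraries were sought for FN1 and ITGA3, the genes with the widest ranges of log2 CPM, 12.06 and 6.33. Likeness was the Euclidean distance between log2 CPM centred per gene. Nearest to FN1 were DKK1 (distance 0.51), a secreted Wnt inhibitor gene with 4822, 4144, 0 and 1 counts in OE33 siPPARG, OE33 control, Eso26 siPPARG and Eso26 control, MMP7 (distance 0.62), a matrix metalloproteinase gene with 19706, 13285, 1 and 8, and ABLIM3 (distance 0.64) with 5704, 4968, 0 and 0. Nearest to ITGA3 were SMN2 (distance 0.08), a survival motor neuron gene whose near-identical copy SMN1 makes its counts of 201, 188, 3 and 1 uncertain, CAPG (distance 0.11), an actin-capping protein gene with 1566, 1488, 36 and 21 counts, and SPOCK1 (distance 0.15) with 138, 141, 1 and 0. Over 4 libraries from 2 lines such a profile is mostly the gap between the lines.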

How the data were processed

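RNA-seq was deposited as 1 count table per line, with raw counts per gene and no normalisation, per the file headers and the values. Trim Galore, STAR, Bowtie, Picard, MACS2 and hg19 are named in the submitters' processing notes without their roles. The counter, its strand setting, its handling of reads shared by similar genes and its annotation were not given in these sources. Each table had 37533 rows, of which 40 repeated an identifier and were summed with their partner. The 9 genes and the related lists were chosen with earlier results of these data known. Samples were grouped by their titles. Totals ran from 16866996 to 23019840 counts, which sets the precision given by the intervals.

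Counts were scaled with TMM factors over the 4 libraries (edgeR 4.0.16, R 4.3.3). Log2 folds are differences of log2 CPM with a prior count of 2, among genes that reached 5 CPM in either library compared, read against 2-fold. Ratios carry exact conditional binomial (Clopper-Pearson) and CPM exact Poisson 95% intervals, for counting error only. The line and treatment terms were fitted with edgeR's quasi-likelihood test on 4 libraries, with Benjamini-Hochberg adjustment over all genes tested and a threshold of 0.05. DESeq2 1.42.0, limma 3.58.1 (voom), other scalings, prior counts, expression levels and fold thresholds were alternatives. Named genes were the 9, PPARG and partners of the 9, and from each list those past 2-fold after siPPARG plus up to 4 with the largest gap between the controls, and some named by that rule are not reported here. EPCAM, VIM and CDH2 were named as defining markers. Promoter letters are RefSeq's on GRCh38.p14, matched for 7 of 9 genes. Peak lists were left out because they are on hg19 and no annotation of that build was used.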

Additional observations from a re-analysis of the deposited data

Results flagged for a closer look

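None of the 9 genes, but 5 of the related genes named here, lay on opposite sides of 1 in the lines after siPPARG with both counting intervals clear of 1. The siPPARG difference between the lines was not tested, since each condition had 1 library. How many of all genes meet the same rule was not counted, so these 5 have no background share. The intervals leave out the spread between cultures. Over all genes kept, the median absolute log2 fold was 0.15 in OE33 and 0.15 in Eso26. The log2 fold of siPPARG in OE33 minus that in Eso26 was 1.19 for ITGB8, from log2 folds of 0.76 in OE33 and -0.43 in Eso26. It was 0.72 for PLAU (0.29 in OE33, -0.43 in Eso26) and 0.54 for ITGA5 (0.26 in OE33, -0.28 in Eso26). DST, the dystonin gene of the hemidesmosome, had a difference of 0.45 (0.17 in OE33, -0.28 in Eso26). LAMA5, the alpha chain gene of other epithelial laminins, went the other way, with a difference of -0.32 (-0.19 in OE33, 0.14 in Eso26). PPARG itself was lower in OE33 alone beyond counting error, and its part in these differences was not tested.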

How the results depend on the processing

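No paired analysis was possible because each group has 1 library, and for the same reason no replicate could be left out. Within a line and between the controls, the scaling turned the sign only of ITGA2 and ITGA3 in OE33 siPPARG and of LAMB3 and ITGB6 in Eso26 siPPARG, whose intervals take in 1. The treatment term of FN1, 0.20 with edgeR, was -0.26 with DESeq2, neither called, and the cause was not tested. After siPPARG in OE33, 112 genes were past 2-fold higher and 44 lower. These counts became 211 and 84 at 1 CPM, 867 and 590 with no expression filter, and 351 and 246 at 1.5-fold, where 1 of the 9 genes was higher and 1 lower instead of 0 and 0. In Eso26, 6 were higher and 14 lower, which became 63 and 33 at 1 CPM, 2 and 7 at 10 CPM, 465 and 327 with no filter, and 137 and 116 at 1.5-fold, where 1 of the 9 genes was higher. Between the controls, 2330 higher and 1897 lower became 3743 and 3658 with no filter, and 3217 were lower at 1.5-fold. These counts differ by construction, since the filter and the fold set how many genes enter. The treatment term called 0 genes, 13 with DESeq2 and 112 with no filter, and none of the 9 in any setting. The cause of the larger calls was not tested. The line term called 7 of the 9 genes in every setting but the fit with no filter, which added LAMB3 at a log2 fold of 0.33. Setting the siPPARG libraries in place of the controls moved the line fold of 7 of the 9 genes beyond counting error, with the directions given in the report. The exceptions were FN1 and ITGB4. Such moves were not counted over all genes, so the 7 of 9 have no background share. ITGB1 in Eso26 moved to -0.30 without a scaling factor. The planned comparisons of peaks were not run, since no annotation on hg19 was used. The few FN1 reads in Eso26 limit its fold between the lines.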
